A study of Mus musculus with 5 samples.

Results

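The positions described here are adenosine positions of mouse embryonic stem cell (mESC) mRNA at which nanopore direct RNA sequencing called inosine or 2'-O-methyladenosine. They were chosen by their values in the DMSO library with 2 thresholds, a valid coverage of at least 50 calls and an other-modification share of at least 10%, outside the 18S ribosomal RNA copy on chromosome 17 and the mitochondrial chromosome. The rule kept 1187 of 306353 positions that had the coverage, a share of 0.387%, out of 471848 positions in the table. A valid call is a read whose base at the position was called unmodified, m6A or another modification with enough confidence. The other-modification share is the percentage of valid calls in the last class, which for this caller holds inosine and 2'-O-methyladenosine together. These deposited rows do not separate the 2 modifications, so no position below can be assigned to either of them.

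Inosine is made from adenosine in double-stranded RNA by ADAR enzymes, and because it pairs with cytidine it is usually read as guanosine after reverse transcription. 2'-O-methylation adds a methyl group to the ribose. In ribosomal and small nuclear RNA it is placed by fibrillarin within snoRNA-guided particles that also contain Nop56, Nop58 and Snu13, and next to the mRNA cap it is placed by the cap methyltransferases Cmtr1 and Cmtr2. m6A, the main internal modification of mRNA, is placed mostly by METTL3 in the DRACH motif, and METTL5 places it on 18S rRNA.

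The study compared DMSO with STM2457, a METTL3 inhibitor, in one dataset, and untreated WT cells with Mettl5-KO cells in another. DMSO (0.025%) and STM2457 (30 µM) were each given for 48 h to E14 mESCs that carried the reporters 2C::3xtbGFP-PEST and Zscan4::mCherry-PEST, a non-induced Dox::APOBEC1-YTH transgene and a homozygous, non-induced METTL3-FKBP12 F36V knock-in, so both of these libraries share every allele. WT and the Mettl5-KO clones c1 and c2 received no treatment and come from another batch, and both clones were compared with the same WT library. Each of the 5 libraries is 1 sample, with no replicate of a treatment or of WT, so every Fisher's exact test below compares libraries and not conditions, and every interval covers counting error only.

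Valid calls per library ranged from 17897440 in Mettl5-KO clone 1 to 71574467 in DMSO. All calls of another modification made up 0.417% to 0.778% of the valid calls of a library. Of 10 pluripotency genes, 8 had a position with the coverage (Dppa5a, Esrrb, Nanog, Pou5f1, Sox2, Tdgf1, Utf1 and Zfp42), while none of the listed primitive endoderm, mesoderm, fibroblast feeder or two-cell-like genes did.

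The sequences around the called adenosine come first, since about 1 in 2 members shared a short motif. The following 21-base stretches are shown as examples from the named positions, each at 33% or more in every library that held it, and not as the highest in order. They are read 5′ to 3′ on the transcript strand from the GENCODE M21 transcripts (mm10) and written in DNA letters. The capital A in the middle is the called base, and where the 4-base sequence CATT or TATT lies around it the 4 bases are all in capitals.
Eef2, chr10:81180211: atgtggaaaCATTgtggggct
Mrpl11, chr19:4963625: ccgttccatCATTggctctgc
Gnai2, chr9:107614533: agagaaaccTATTtaaaactg
Actg1, chr11:120348064: cgcactcgtCATTgacaatgg
Tubb5, chr17:35835215: agtcaccttCATTggaaacag
Snu13, chr15:82041477: ttgtggaacCATTtgatggcc
Aprt, chr8:122575164: gagagtggtCATTgtggatga
Hmox1, chr8:75100025: tgtaaatgcaAtactggcccc
Ruvbl2, chr7:45424188: ggtgctgttcAtcgacgaggt
Ifitm2, chr7:140955831: gtacggggtgActgagctggg
C1qbp, chr11:70978072: gcgggccttaAtttaaatggc

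Of the 1183 members with a transcript sequence, 329 (27.8%) lay in CATT and 266 (22.5%) in TATT, the called A being the second base. The motifs were picked from these members, so their shares are a description. Together they held 595 members (50.3%) against 6924 of the 303590 covered positions with a sequence (2.28%). CATT alone was found at 1.28% and TATT at 1.0% of all covered positions, searched on the transcript strand only. The same ending after a purine held fewer members, with 56 in AATT (4.73% against 1.09% of all) and 33 in GATT (2.79% against 1.14%). CATC held another 59 members (4.99% against 1.76%). Base by base, the members had T after the A at 71.3% against 19.1%, a pyrimidine before it at 76.8% against 43.1%, T at base 2 before it at 42.0% against 22.7%, and G at base 3 after it at 46.7% against 24.4%. The DRACH motif of METTL3 held 9 members (0.761%), while it held 8.63% of all covered positions.

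The motif alone did not make a position a member. Of the CATT and TATT positions covered in DMSO, 8.59% were members, against 0.198% of positions in other sequence, and the CATT and TATT positions below the threshold had a median share of 1.52%. Among 6-base contexts the members were densest in TCATTG, where 72 of 277 positions (26%) were members, followed by GCATTG (22.8%), ACATTG (22.7%), TTATTG (19.8%) and ATATTG (17.6%). In CCATTG the proportion was 6.65%.

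The same thresholds were then applied to each library on its own, without reference to the DMSO choice. They kept 885 positions in STM2457 (0.36% of those covered), 537 in WT (0.519%), 430 in Mettl5-KO clone 1 (0.496%) and 525 in clone 2 (0.525%). CATT and TATT held 51.9% of them in STM2457, 42.4% in WT, 43.6% in clone 1 and 43.4% in clone 2. Among the motif positions covered in each of these libraries, 8.02%, 9.48%, 9.44% and 10.3% passed the thresholds, in the same order. Among 53 WT positions with a sequence that passed and were not in the DMSO table at all, 25 (47.2%) were in the motif. TCATTG also had a high proportion in WT, at 30.9% of 94 positions, and there ACATTG stood at 32.2%.

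The members lay on 718 of the 1836 genes with a covered position. Most of these genes, 431, carried 1 member, 178 carried 2, and 109 carried 3 or more. Actn4, an actin cross-linking protein, carried 7, and Ctnnb1 (beta-catenin), Hsp90ab1 (a cytosolic chaperone), Mest, Qars (glutaminyl-tRNA synthetase) and Rpa1 (the large subunit of the single-stranded DNA binding complex) carried 6 each. By place, 662 members (55.8%) were in 3' UTRs against 48.7% of all covered positions, 473 (39.8%) were in coding sequence against 46.7%, and 13 (1.1%) were in 5' UTRs against 0.936%. Non-coding exons held 35 (2.95% against 2.78%), introns 1 (0.0842% against 0.258%), and 3 were intergenic (0.253% against 0.644%). The last exon of the transcript held 73.9% of the members and 69.6% of all covered positions. Members of 3' UTRs stood a median of 408.5 bases from the annotated transcript end, and covered 3' UTR positions in general 448 bases. Protein-coding genes held 1150 members (96.9% against 96.6% of all covered positions). Another 28 were on processed pseudogenes, 19 on plain ones (1.6% against 1.23%) and 9 on transcribed ones (0.758% against 0.752%). The near-identical parent mRNAs of these pseudogenes make the placing of a read uncertain. Another member lay within 100 bases of 218 members (18.4%) but within 5 bases of only 13, so most members were single adenosines and not runs.

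The fixed gene lists show where members did and did not fall. No gene of 24 known recoding editing targets was covered, and of 6 adenosine deaminase genes only Adat2, which had no member at 77 covered positions. Genes of 2'-O-methylation were covered at 3 of 15, and all of these carried members, 10 in 1318 positions (0.759%): 4 on Nop56, 3 on Snu13 and 3 on Ftsj3, a methyltransferase of ribosome assembly. Among all covered genes, 718 of 1836 carried a member. Eif and Eef genes of translation held 33 members (0.447% of their positions), Hnrnp genes 15 (0.455%), Srsf splicing factor genes 7 (0.477%) and cytosolic ribosomal protein genes 10 (0.307%), around the 0.387% of all positions. The 3 covered snoRNA host genes held 1 member at 123 positions (0.813%), on Snhg8. Pluripotency genes held 11 members at 2548 positions (0.432%), 9 of them in the motif, on the 7 genes Pou5f1, Sox2, Nanog, Esrrb, Tdgf1, Zfp42 and Dppa5a. These lists are described by their counts alone.

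The DMSO shares, which chose the members, ran from 10% to 87.5% with a median of 14.02%. The 3 highest shares were seen at Hmox1, Mrpl11 and the pseudogene Gm9797. At Hmox1, which codes for heme oxygenase 1, a 3' UTR position on the plus strand had 87.5% of 64 valid calls in DMSO (95% exact binomial interval 76.8 to 94.4%) and 96.8% of 63 in STM2457 (89.0 to 99.6%). At Mrpl11, a mitochondrial ribosomal protein gene, a coding position in exon 4 had 74.8% of 111 calls in DMSO (65.6 to 82.5%) and 70.3% of 74 in STM2457 (58.5 to 80.3%). Both positions were high in both libraries of the dataset and were not in the Mettl5 table. At the threshold, members of Psmc5, Ppp2ca and Eif6 were at 10%, and the positions next below it, on Eif5a, P4hb and Stub1, were at 9.93%, 9.93% and 9.92%.

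To ask whether the calls came back in a library that had no part in the choice, the same positions were read in STM2457. Of the 1187 members, 758 (63.9%, 95% exact binomial interval 61.1 to 66.6%) were at 10% or more there, while 0.403% of all covered positions were. At 5% or more stood 1068 members (90%), and 18 had no call of another modification. Over all covered positions the upper quartile of the STM2457 share was 0, and their proportion at 5% or more was not counted. The median share was 12.6% in STM2457, and 795 members (67.0%) were lower there than in DMSO. The choice by high DMSO shares favours lower values in any second library, so no fall with the inhibitor is read from this. Choosing in the other direction gave a like proportion, since 579 of the 885 positions that passed the thresholds in STM2457 (65.4%) were at 10% or more in DMSO. Pearson's correlation of the shares across the 1187 positions was 0.80 (Spearman 0.65), across positions that were selected for one of the axes and that differ in depth.

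**Figure D1:**
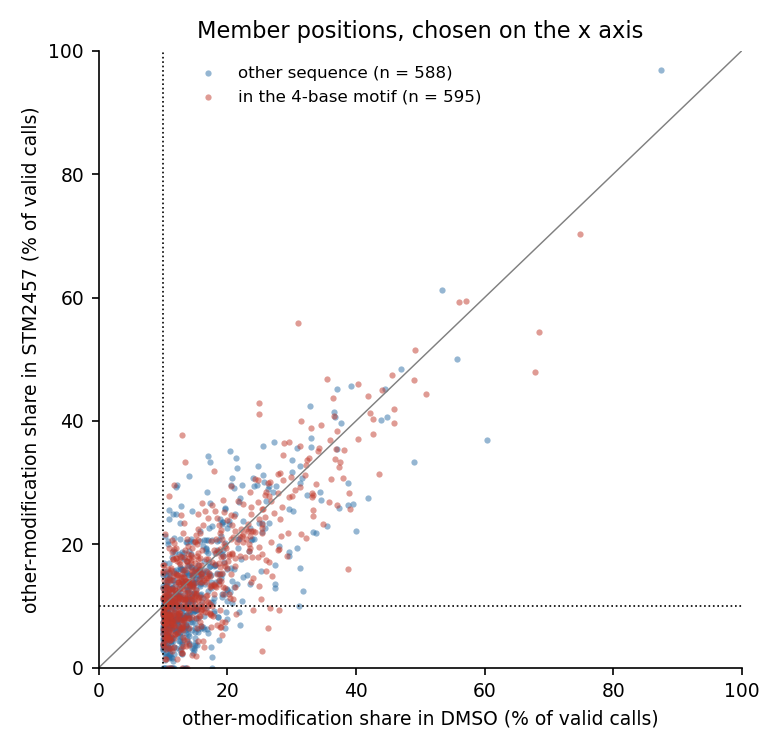
Other-modification share of the 1187 members in DMSO (x axis, % of valid calls) and in STM2457 (y axis, % of valid calls), red for positions in CATT or TATT and blue for other sequence (4 members without a transcript sequence are not drawn), with dotted lines at 10% and the diagonal in grey. The points follow the diagonal and 758 of the 1187 members lie at or above 10% in STM2457.

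The proportion of calls that came back was higher in members with a higher DMSO share, which lay further above the 10% mark. The ranges below are cut on the value that chose the members, so this rise is a description only. Between 10% and 15% in DMSO, 46.6% of 674 members were at 10% or more in STM2457, with a median of 9.56%. From 15% to 20% it was 75.6% of 246 members, from 20% to 30% it was 94.6% of 167, and at 30% or more it was 100 of 100, where the median in STM2457 was 34.6%. Of the members in the motif 419 of 595 (70.4%) were at 10% or more in STM2457, and of those in other sequence 336 of 588 (57.1%). Members in the motif also had a higher median DMSO share, 14.6% against 13.6%, and the proportions are not matched for it. The motif share of members was 45.5%, 53.5%, 59.6% and 59.0% from the lowest to the highest of these 4 DMSO ranges.

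The 10 highest DMSO shares among members with at least 100 valid calls in both libraries were on genes of different functions. Eef2, the translocation factor of translation, had 56.1% of 617 calls in DMSO (95% exact binomial interval 52.1 to 60.04%) and 59.3% of 396 in STM2457 (54.3 to 64.2%). Eif3l, a subunit of initiation factor 3, had 45.9% and 39.6%, and Rpl8, a ribosomal protein, 43.6% and 31.5%. The replicative helicase gene Mcm2 had 43.9% and 40.2%. Cnbp, a zinc finger protein that binds single-stranded nucleic acids, had 44.8% and 40.7%, and Aprt, which salvages adenine, 42.2% and 41.3%. The list was completed by Ifitm2, Hnrnpab (38.9% and 28.4%), Tuba4a (38.1% and 35.4%) and the proteasome gene Psmb2 (38.0% and 30.8%). All 10 stayed above 28% in STM2457. In WT, clone 1 and clone 2, however, Cnbp had 18.8%, 17.2% and 10.9%, and Tuba4a 20.4%, 9.68% and 12.1%. Psmb2 was not in the Mettl5 table, and the others stayed above 28% in each library of that dataset.

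The widest moves between both libraries are given as values, since the DMSO share chose the positions. The largest falls, among members with at least 100 calls in both, were at the alanyl-tRNA synthetase gene Aars (19.7% to 7.41%), Rpl8, Rbmxl1 (34.8% to 23.4%), the proteasome gene Psmd4 (30.8% to 19.5%) and the mitochondrial ribosomal protein gene Mrps25 (22.2% to 10.9%). The largest rises were at Mlf2 (14.1% to 31.1%), Psmd8, another proteasome gene (20.4% to 35.1%), Gm4737 (20.7% to 30.7%), Marcksl1 (21.1% to 29.1%) and an intronic position of Nudcd3 (12.7% to 20.8%). WT, clone 1 and clone 2 had 6.06%, 12.2% and 21.5% at Mlf2, on both sides of DMSO, and 10.2%, 5.56% and 13.5% at Psmd8, all below DMSO.

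The untreated cells of the Mettl5 dataset gave a further reading of the calls. Its table held 443 of the 1187 members, and 195 of these (44.0%, 95% exact binomial interval 39.3 to 48.8%) were at 10% or more in all 3 libraries, against 0.226% of all positions of that table outside 18S and the mitochondrial chromosome. In single libraries it was 270 in WT (60.9% against 0.606% of all), 263 in clone 1 (59.4% against 0.631%) and 281 in clone 2 (63.4% against 0.638%). None of the 3 libraries reached 10% at 92 members. In the motif, 119 of 230 members (51.7%) came back in all 3, and in other sequence 76 of 210 (36.2%), in groups not matched for the DMSO share. All 5 libraries stood at 10% or more at 161 members, 104 of them (64.6%) in the motif. No like count over all positions is set beside this, so it is a description only.

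The members whose lowest library was highest, 9 of 10 of which are given, show the size of these calls. Eef2 had 62.1% in WT, 59.4% in clone 1 and 63.6% in clone 2, beside the DMSO and STM2457 values given above. At Ruvbl2, a helicase of chromatin remodelling complexes, the shares were 53.4% in DMSO, 61.2% in STM2457, 59.5% in WT, 43.6% in clone 1 and 44.1% in clone 2. At both positions the order of the libraries differed, and the intervals of most libraries overlapped.

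Gnai2, a G protein subunit, had 45.9% in DMSO, 41.9% in STM2457, 52.7% in WT, 36.8% in clone 1 and 54.3% in clone 2. Ifitm2, a membrane protein gene, had 44.6%, 45.1%, 39.3%, 38.3% and 35.2% in the same order of libraries, and Actg1, cytoplasmic gamma-actin, 42.7%, 40.4%, 38.5%, 45.3% and 44.6%. At Snu13, the box C/D snoRNP protein, a 3' UTR position had 34.3%, 35.6%, 40.6%, 33.3% and 37.8%. These 4 positions had no common order of libraries. C1qbp, a mitochondrial matrix protein, had 36.7% and 40.6% in DMSO and STM2457 but 53.4%, 55.8% and 54.8% in WT and the clones, and the beta-tubulin gene Tubb5 had 36.7% and 33.9% but 48.8%, 54.0% and 52.2%. At both genes all 3 libraries of the Mettl5 dataset were above both others.

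**Figure D2:**
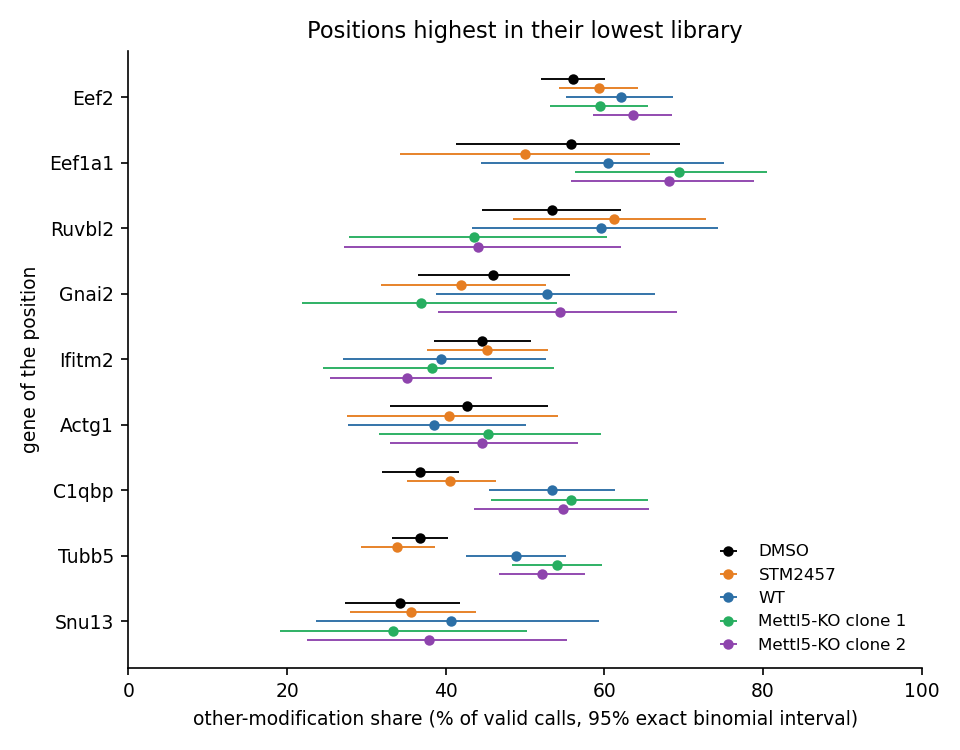
Other-modification share (x axis, % of valid calls) of 9 of the 10 members with the highest value in their lowest library, 1 row per position named by its gene, with a point per library and its 95% exact binomial interval as a line. Every point lies above 33%, and at C1qbp and Tubb5 the WT and Mettl5-KO points stand to the right of DMSO and STM2457.

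The position of Eef1a1 among these 9, chr9:78479893 on the minus strand, differs from the others. The reference base there is T, 98.7% of the reads in DMSO carried a base other than A, and the shares of 55.8% in DMSO, 50% in STM2457, 60.5% in WT, 69.4% in clone 1 and 68.1% in clone 2 rest on 52, 42, 43, 62 and 69 valid calls. These are the minority of reads that were read as A at a T of the genome. In all, 6 members had a reference base other than A. At Gm15501 and Trh most reads in DMSO also carried a base other than A (97.4% and 94.4%). At Gm6083, Tyms-ps and Spg21 only 2.76%, 2.82% and 1.23% did, so most reads there carried A against the reference.

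The members on genes of 2'-O-methylation differed in how far they came back. On Nop56, which codes for a core protein of the snoRNPs, the coding position chr2:130277104 had 34.4% in DMSO, 28.5% in STM2457, 33.3% in WT, 32.9% in clone 1 and 24.8% in clone 2. Its neighbour chr2:130277047, in CATT, had 29.9%, 31.0%, 34.9%, 33.3% and 37.8%. Both were above 20% in every library. At chr2:130276515 the shares were 15.8%, 21.9%, 10.5%, 10.4% and 6.41%, and at chr2:130277534 they were 14.8%, 9.76%, 19.0%, 26.4% and 11.7%, so that each fell below 10% in 1 library. Snu13 carried 2 more members, at 20.9% and 17.9% in DMSO and 21.2% and 13.6% in STM2457. In WT, clone 1 and clone 2 the first, chr15:82042333, had 13.9%, 39.5% and 25.9%. The second, chr15:82042013, had 13.2%, 11.4% and 17.3%. The 3 members of Ftsj3 were just over the threshold, at 10.5%, 10.3% and 10% in DMSO and 12.2%, 6.67% and 3.64% in STM2457.

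Loss of Mettl5 was then tested at the 443 members, WT against each clone, with Fisher's exact test and adjustment over the whole table of 195787 positions. No member differed in both clones at an adjusted p below 0.05, and none differed in either clone. Over the whole table the calls were also few, with 0.00102% of positions lower in both clones, 0% higher in both, 0.00102% changed in clone 1 and 0.00358% in clone 2. At an unadjusted p below 0.05 there were 13 members in clone 1 (2.93%, against 0.221% of all positions) and 15 in clone 2 (3.39% against 0.274%), where most of the other positions have few such calls to compare. In both clones and the same direction there was 1 (0.226% against 0.0332%), a 3' UTR position of Snx3, an endosomal sorting protein, which had 11.8% of 51 calls in WT. Clone 1 had 0 of 36 there and clone 2 had 0 of 53, and taking 3 counts as the limit that a count of 0 allows, these leave shares of up to 8.33% and 5.66%. Another Snx3 member, in the motif, went the other way, with 12.1% in WT, 27.3% in clone 1 and 19.5% in clone 2. Both clones were below WT at 155 members (35.0%) and above it at 142 (32.1%). WT and clone 1 had a median share of 11.5%, and clone 2 had 12.2%. Shares in WT and clone 1 correlated at 0.81 (Pearson) across the 443 positions, WT and clone 2 at 0.84, and the clones at 0.81, while DMSO and WT correlated at 0.69 and STM2457 and WT at 0.64. The positions share their genes and libraries, and coverage near the 25 calls required for the table limits what could be detected at many of them.

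**Figure D3:**
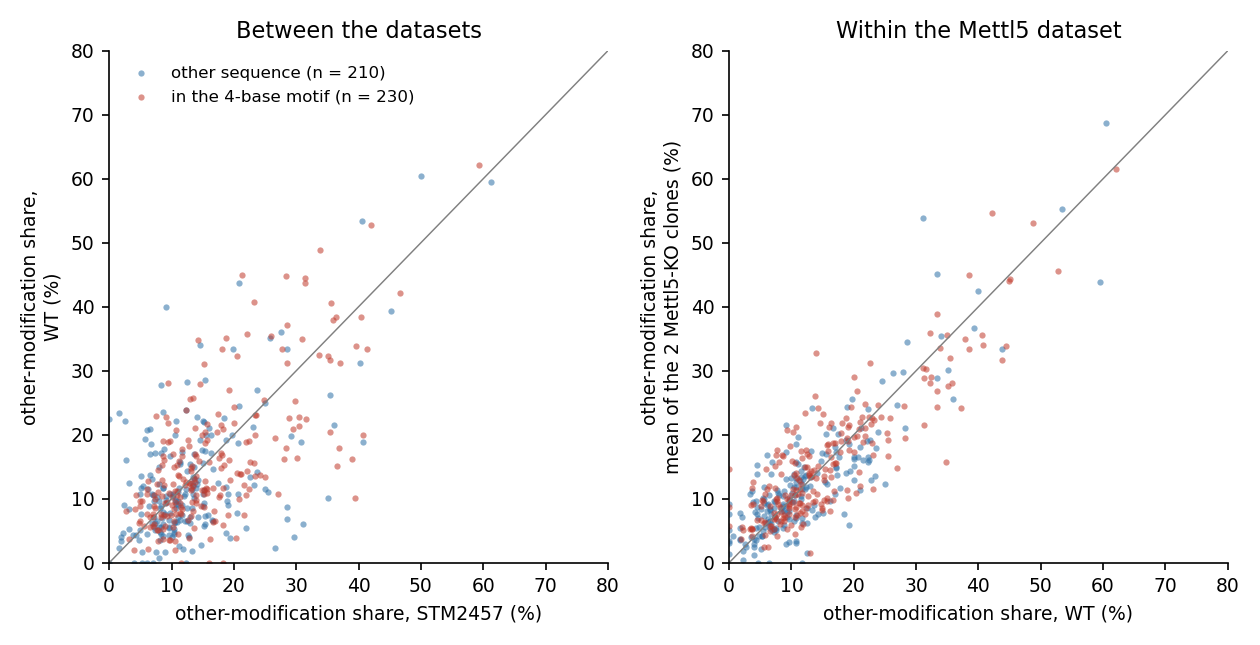
Other-modification share of the 440 members with a transcript sequence in the Mettl5 table, STM2457 against WT on the left and WT against the mean of both Mettl5-KO clones on the right (axes in % of valid calls), red in CATT or TATT and blue in other sequence, with the diagonal in grey. The points lie closer to the diagonal on the right, where both axes come from the Mettl5 dataset, than on the left. The right panel plots a mean of both clones and the left panel single libraries, so the spreads are not compared like for like.

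The difference between the datasets was therefore tested at the members, STM2457 against WT and against each clone, over 155280 positions in both tables. This comparison was chosen after the data had been seen, and DMSO was left out of it because its shares chose the positions. By Fisher's exact test with adjustment over all positions, 9 members (2.03%) were higher in WT than in STM2457, against 0.0837% of all positions, and 7 (1.58%) were higher in WT and both clones, against 0.0393%. In the other direction 6 (1.35%) were lower in WT, against 0.00644%, and 3 (0.677%) in all 3 libraries, against 0.00386%. Nothing is read from these shares beside the background, since the members were chosen for high values in DMSO, a library of the same cells as STM2457, and most other positions had no such call in STM2457 and could not be lower. The lower positions are therefore given as values. The 3 tests share the STM2457 library. Cell line and treatment differ between the datasets, and any difference of batch or sequencing run would go with them, so these cannot be told apart.

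Hsp90ab1 carried a member in each direction. At its coding position chr17:45571472, in CATT, the share was 10.5% of 1807 calls in DMSO and 7.5% of 1213 in STM2457, but 22.9% of 576 in WT, 22.3% of 622 in clone 1 and 22.9% of 738 in clone 2 (adjusted p by Fisher's exact test 2.41e-14, 1.16e-13 and 5.14e-17 against STM2457). At chr17:45569815 in exon 7 of the same transcript it was 13.7% in DMSO and 12.7% in STM2457, but 4.38%, 3.38% and 3.82% in WT and the clones. The gene was thus high in one dataset at one position and low at another. Failed calls moved at both. At chr17:45571472 they were 26.2% and 26.1% in DMSO and STM2457 and 31.6%, 32.2% and 33.99% in WT and the clones. At chr17:45569815 they were 40.4% and 41.3% in DMSO and STM2457 but 20.3%, 22.1% and 19.0% in WT and the clones, and reads with another base were 11.9% and 12.1% but 19.3%, 16.8% and 17.8%, and their part in the difference was not tested. Another Hsp90ab1 position, chr17:45569040 in TATT, passed none of these tests, with 20.2% in DMSO, 17.4% in STM2457, 20.5% in WT, 19.4% in clone 1 and 20.2% in clone 2.

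Among the others higher in the Mettl5 dataset, Cct5, a chaperonin subunit, had 19.0% in DMSO and 14.5% in STM2457 against 34.01%, 36.9% and 33.9% in WT and the clones. Pcbp1, a poly(C)-binding protein, had 10.99% and 8.39% against 27.9%, 28.7% and 30.99%. Dppa5a, a pluripotency-associated gene, had 10.5% and 10.8% against 20.8%, 20% and 21.7%. The Eef1a1 position chr9:78480348, in TATT, had 10.6% and 10.2% against 16.98%, 15.2% and 16%. In each of these the 3 libraries of the Mettl5 dataset lay above both others without overlap. Failed calls at Dppa5a were 32.3% and 32.2% against 40.6%, 36.7% and 39.5%, and at this Eef1a1 position 32.1% and 32.5% against 38.3%, 37.2% and 39.4%. At Cct5 they were 23.4% and 24.9% against 23.4%, 26.5% and 30.1%, and at Pcbp1 27.2% and 28.9% against 35.2%, 27.8% and 31.7%. The remaining 2 were on Gm10123 and Eno1b, near-identical copies of other genes, where reads could belong to the parent mRNA. Mdh2, a mitochondrial malate dehydrogenase, passed against WT (40% against 9.17% in STM2457) and clone 1 but not against clone 2, which had 25 calls there. The pseudogene Gm6083 had 8.63% in STM2457 and passed against WT (23.6%) and clone 2 (23.4%) but not against clone 1 (12.3%). Over 21 bases around the position it differs from Dppa5a only at the called base, where its reference is C. Reads with a base other than A there were 2.76% in DMSO, 2.69% in STM2457, 6.83% in WT, 4.56% in clone 1 and 3.48% in clone 2. Most reads placed on Gm6083 thus carried the base of Dppa5a and not that of its own reference. The placing of reads between Gm6083 and Dppa5a is therefore uncertain too, and the Gm6083 values are not read as those of a separate position. Tubb5 passed against clone 1 and clone 2 but not against WT (adjusted p by Fisher's exact test 0.000257, 0.00111 and 0.115), and C1qbp passed against none of the 3.

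In the other direction stood Ncl and Hnrnpab, which both code for RNA-binding proteins of the nucleus. The Ncl coding position chr1:86356382 had 14.2% in DMSO and 13.3% in STM2457 against 1.82% in WT, 3.65% in clone 1 and 3.73% in clone 2. Hnrnpab at chr11:51600918, in TATT, had 33.0% and 38.9% against 16.1%, 18.2% and 10.98%. Failed calls were higher in the first dataset at both, with 17.8% and 23.8% against 5.59%, 5.42% and 5.98% at Ncl and 40.2% and 43.5% against 33.6%, 31.6% and 24.1% at Hnrnpab. The part of failed calls in any of these differences was not tested.

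Failed calls, the reads whose class did not reach the confidence filter, were frequent at the members. Their median was 32.7% of valid and failed calls in DMSO, against 6.06% over all covered positions and 15.8% at the CATT and TATT positions that were not members. At 1081 members (91.1%) at least 20% of the calls failed, against 8.03% of all covered positions. Over whole libraries 8.31% to 9.15% of calls failed. The members also had high failed shares in the libraries that did not choose them, with medians of 33.9% in STM2457, 30.1% in WT, and 29.7% and 30% in the clones. With failed calls put in the denominator the median DMSO share of the members was 9.52%. At Eef2 the failed share was 67.2% in DMSO and 52.5% in WT, while at Ifitm2 it was 24.6% and 14.1%. Whether the failed calls bear on the shares was not tested.

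**Figure D4:**
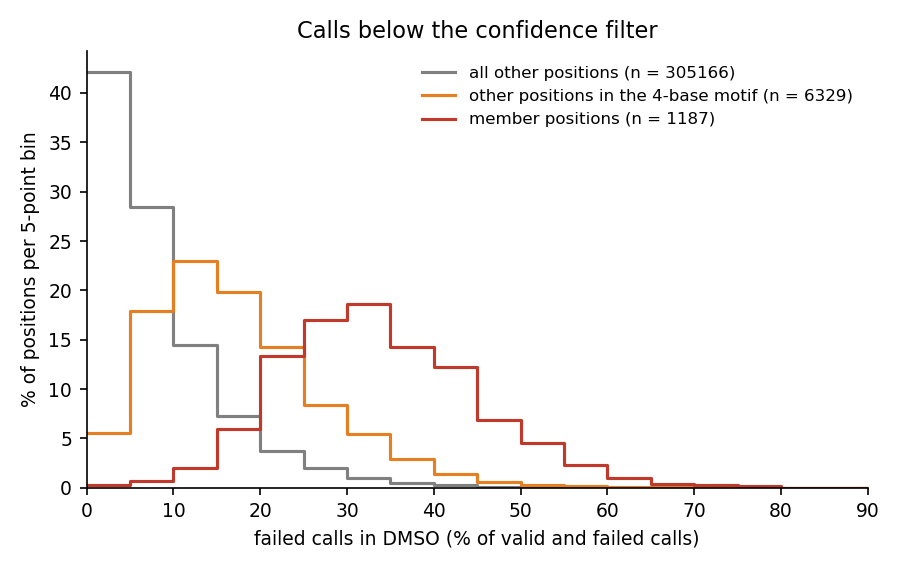
Failed calls in DMSO (x axis, % of valid and failed calls, in bins of 5 points) and the percentage of positions in each bin (y axis) for the 1187 members, for the other CATT and TATT positions and for all other covered positions. The member curve peaks above 30%, to the right of both others.

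The share of reads that carried another base than A was recorded for each position, without the identity of that base. An inosine read as guanosine would be counted there. The other-base share is taken here over valid, failed and other-base reads. It was at 5% or more at 37 members (3.12%, against 0.632% of all covered positions) and at 10% or more at 15 (1.26% against 0.0992%), while 475 members (40.0%, against 69.8%) had none. Of these 37, 25 were at 5% or more in STM2457 too, and 10 (27%) were in the motif, against 51.0% of the members below 5%. STM2457 and DMSO were compared by Fisher's exact test with adjustment over 471848 positions. No member changed its other-base share, against 0.000636% of all positions lower and 0.000212% higher, and 18 members (1.52%, against 0.226% of all positions) had an unadjusted p below 0.05.

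The 3 highest other-base shares were at members whose reference base is not A, and the other base there may be the reference base itself. They were the Eef1a1 position above, Gm15501 (97.4%, reference G) and Trh, the thyrotropin-releasing hormone gene (94.4%, reference G). Next came Ube2m, an enzyme of NEDD8 conjugation, and Rpa1. The sequences of these 3 positions, which have A in the reference and a large part of reads with another base, are given with the called A in capitals.
Ube2m, chr7:13035598: gcaattacccAtccctgccag
Rpa1, chr11:75301015: aacagaaattAtgtcacaagt
Rpa1, chr11:75300584: cagttacttgAgacacaatcc
The Ube2m position, in the 3' UTR on the minus strand, had other bases in 37.6% of reads in DMSO and 33.6% in STM2457, beside other-modification shares of 32.8% and 42.4%. Its failed share was 55.8% and 59.3%.

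Rpa1 carried 2 of the members in which both other-base reads and other-modification calls were high. All 6 of its members fell within the last exon (exon 17) of Rpa1-202, in the 3' UTR, on the minus strand of chromosome 11. None was in CATT or TATT. At 75301015 the other-modification share was 29.6% in DMSO and 18.2% in STM2457, and the other-base share 30.9% and 15.2% (unadjusted p by Fisher's exact test 0.00375, not past the threshold after adjustment). At 75300584 the other-modification share was 31.8% in DMSO, 12.5% in STM2457, 28.3% in WT, and 17.2% and 25% in the clones. The other-base share at this position was 22.9%, 15.3%, 33.3%, 28.3% and 30% in the same order. Failed calls there were 4.44% in DMSO, 4% in STM2457, 1.85% in WT, 12.1% in clone 1 and 8.57% in clone 2, all below the member medians.

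Another 4 members lay beside it. At 75300630 the other-modification share was 41.9% in DMSO, 27.6% in STM2457, 36% in WT, and 31.2% and 20% in the clones. The positions 75300550, 75300578 and 75300582 had 14.9%, 14.5% and 10.8% in DMSO and 6.52%, 3.26% and 5.71% in STM2457. All 6 were lower in STM2457 than in DMSO, but the DMSO values had chosen them, so no test was made. In WT, clone 1 and clone 2 the shares were 20.97%, 20% and 16.2% at 75300550, 12.5%, 3.12% and 13.9% at 75300578, and 19.4%, 13.5% and 15.2% at 75300582. The order of the positions differed between libraries, 75300550 being above 75300584 in clone 1 and below it in the others.

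A perfect inverted repeat of 12 bases within 1000 bases of the transcript was searched for after the values had been seen. It lay at 6 of all members with a sequence (0.507%), against 0.418% of all covered positions. Rpa1 75300550 was among these 6. The search leaves out imperfect pairing. In Rpa1, the 25 bases around 75301015 could pair at 20 with transcript bases 2652 to 2676. This stretch holds 75300584, 75300582 and 75300578, whose own windows paired back at 18, 18 and 20 of 25. The windows around 75300550 and 75300630 paired at 20 and 15 of 25 with transcript bases 2187 to 2211 and 2265 to 2289. These stretches lie on either side of 75301015, which is transcript base 2228. From 75300630 to 75300550 the partner stretches ran in the reverse order of the positions, as along a single imperfect inverted repeat. No background is set beside these Rpa1 counts, and whether pairing bears on the calls was not tested.

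**Figure D5:**
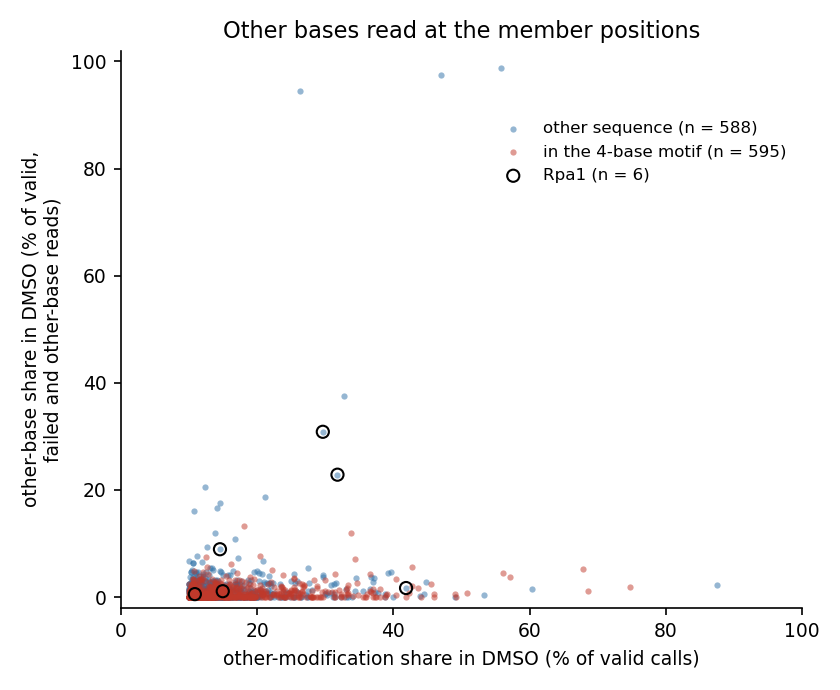
Other-modification share (x axis, % of valid calls) and other-base share (y axis, % of valid, failed and other-base reads) of the members in DMSO, red in CATT or TATT, blue in other sequence, with the 6 Rpa1 positions ringed. Most members lie below 5% on the y axis, 2 ringed positions lie above 20%, and 3 members with a reference base other than A lie above 90%.

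Lastly, the m6A level, the percentage of valid calls that were m6A, was read at the same adenosines. It was 0 at 664 members (55.9%, against 54.5% of all covered positions), at 10% or more at 18 (1.52% against 2.63%) and at 25% or more at 4 (0.337% against 1.18%). Since an other-modification call and an m6A call exclude each other in a read, the shares of a position are not independent. Of the 18 members at 10% or more, 2 were in DRACH and 1 was in CATT or TATT, and 11 were at 10% or more in STM2457 too. No like count over all covered positions is set beside this, so it is not read as a trait of the members.

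The change of m6A with STM2457 was tested with Fisher's exact test on m6A against unmodified calls, adjusted over 471848 positions. The level fell at 1 member and rose at none, against 1.35% of all positions lower and 0.00254% higher, and 11 members (0.927%, against 2.63% of all positions) had an unadjusted p below 0.05. The member that fell was chr10:81566094 on the plus strand, in the 3' UTR of Aes, a corepressor of the Groucho family. Its surrounding sequence is shown because it is one of the few in DRACH, with the called A in capitals.
Aes, chr10:81566094: ttggctcgggActgcagtggg
m6A there was 33.7% of 270 calls in DMSO and 8.67% of 150 in STM2457 (adjusted p by Fisher's exact test 1.04e-06), while the other-modification share was 12.6% and 16%. The m6A call was thus lower in STM2457 and the other-modification share was not.

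At the other 4 members with the highest m6A levels the inhibitor library was not below DMSO. Jund, an AP-1 transcription factor of a single exon, had m6A at 40.4% in DMSO, 44.4% in STM2457, 34.6% in WT, 46.4% in clone 1 and 37.8% in clone 2. Bcat1, which transaminates branched-chain amino acids, had 27.9% in DMSO and 28.6% in STM2457, the mitochondrial thioredoxin gene Txn2 26.6% and 29.5%, and the beta-tubulin gene Tubb4b 23.9% and 25.5%. None of these 4 passed the test, and none was in the motif. At Jund, 63.9% of calls failed in DMSO and 18.6% of reads carried another base, and at Txn2, Bcat1 and Tubb4b 48.5% to 61.2% of calls failed. Whether these properties bear on the m6A calls was not tested.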

How the data were processed

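Libraries of poly(A)+ RNA were read by nanopore direct RNA sequencing. According to the study's methods, the authors demultiplexed with WarpDemuX, called bases and modifications (m6A, inosine and 2'-O-methyladenosine) and aligned to mm10 with dorado, summarised calls with modkit pileup, and kept m6A rows on RefSeq exons covered in every library of a dataset. The deposited values are read counts per position and strand (valid, m6A, unmodified, other modification, failed and other base), and the deposited percent column is the m6A level. Lowest deposited coverage was 25.

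Positions were annotated with GENCODE M21 transcripts. Shares were computed from the counts, with exact Clopper-Pearson intervals of 95%. Fisher's exact tests, 2-sided, were run on all positions of a table (m6A against unmodified, other base against valid and failed, other modification against other valid calls) and adjusted by Benjamini-Hochberg, with a threshold of 0.05. The test code was checked on simulated counts. Python 3.11.15, numpy 2.4.6, pandas 2.3.3, scipy 1.17.1, numba 0.67.0 and matplotlib 3.10.9 were used.

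The members and gene lists were chosen with earlier results of these data known. Named positions are the 10 highest DMSO shares at coverage of at least 100, the 10 highest lowest shares over 5 libraries, the 5 largest falls and rises, the 5 highest m6A and other-base values, members of the enzyme lists, the genes with most members, calls in both clones and the positions around the threshold. The 3 highest shares of all, Snx3, the Rpa1 positions below the highest and the positions that differed between datasets were named after their values were seen. Dose and time are from the study's methods. Alternatives were other coverage and share minimums, other denominators, exonic positions only, stricter p and leaving out a clone. The 18S copy and the mitochondrial chromosome were left out by the rule, and 1 named position is not reported here.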

Additional observations from a re-analysis of the deposited data

Results flagged for a closer look

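The 18S ribosomal RNA copy on chromosome 17 was kept out of the comparisons. In DMSO, 22 of its 418 positions with a coverage of at least 50 passed the same thresholds, 8 of them at 50% or more, with a median of 35.4% and a highest share of 93.1%, and 17 of the 22 were at 10% or more in STM2457. No unmodified control library was used here to set this beside.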

How the results depend on the processing

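The number of members was 2184 at a coverage minimum of 25, 462 at 100, 4542 at a share minimum of 5%, 267 at 20% and 529 with failed calls in the denominator. Over the same alternatives the percentage at or above the share minimum in STM2457 was 56.0, 69.5, 54.6, 73.0 and 60.3. The percentage in all 3 Mettl5 libraries was 49.2 at a coverage of 100, 38.5 at a share of 20% and 37.4 with failed calls in the denominator, and it was 48.3 to 50.6 when 1 clone was left out. Each share alternative moves both the choice and the mark a repeat must reach. Exonic positions only and a coverage of 50 in every library left both percentages within the intervals of the reported values. The test counts of 1 (m6A), 0 (other base) and 0 (both clones) stayed at these values under every alternative run.

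No paired analysis was possible because each group other than the Mettl5-KO clones is 1 library, and the groups share fewer than 2 replicate numbers. Depth limits the list from below: at 50 valid calls a share of 10% is 5 reads, and most members had under 100 valid calls.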
